A study of Mus musculus with 2 samples.

Results

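Uncx+ sclerotome cells were cell barcodes of the E11 mouse aorta-gonads-mesonephros (AGM) region with UMIs of Uncx, which marks the caudal part of each somite, together with UMIs of Pax1 or Pax9, which mark the sclerotome. A barcode entered with 2000 or more unique molecular identifiers (UMIs, counted mRNA molecules), under 10% of them from mt- genes (the mitochondrial genome), at least 1 Uncx UMI and at least 1 UMI of Pax1 and Pax9 summed. The cells were thus chosen by their measured Uncx, Pax1 and Pax9 counts. Of 16418 barcodes that passed the depth and mt- limits, 1533 met the rule.

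The AGM is the tissue around the dorsal aorta in which blood stem cells arise, and its dissection carries neighbouring somite derivatives along. Whole AGMs were taken from PDGFRB +/+ (WT) and PDGFRB -/- (KO) embryos at embryonic day 11, the KO allele being a germline loss kept on a C57BL/6J background. Each genotype gave 1 library of 10x Chromium 3′ single-cell RNA sequencing, loaded for 7000 cells, and how many embryos were pooled is not given in the sources used here. The WT library held 179743201 UMIs and the KO library 174597654.

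With 1 library per genotype no test between libraries was possible and none was made between cells. Levels are given as CPM, in which UMIs are added up over the cells of a population and scaled so that all genes sum to 1000000. The 95% intervals cover counting error only. A gene is said to be higher or lower past the 2-fold mark when its log2 ratio of CPM reached 1 or more either way. In comparisons made within the libraries, a gene was counted as past the mark only where it reached it in both libraries.

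Somites give rise to the sclerotome, from which vertebrae and ribs form, and each sclerotome segment is split into a rostral and a caudal compartment. Uncx is a homeobox gene of the caudal compartment and is needed there for pedicles and proximal ribs, whereas the T-box gene Tbx18 keeps the identity of the rostral compartment, through which motor axons and neural crest cells migrate. Pax1 and Pax9 act in the sclerotome under hedgehog signals from notochord and floor plate, and Sox9, Sox5 and Sox6 then drive the genes of cartilage matrix.

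The WT library held 573 Uncx+ sclerotome cells, 6.94% of its passing barcodes (6.40 to 7.51%, exact binomial), and the KO library 960, or 11.8% (11.1 to 12.5%). The pool from which the rule drew was larger in KO as well. Barcodes with Pax1 or Pax9 UMIs numbered 1664 in WT and 2473 in KO, and Uncx was detected in 34.4% and 38.8% of them. Shares of barcodes also depend on what was dissected and loaded, which cannot be told apart from genotype here.

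The levels of the genes that chose the cells are set in part by the rule. As log2 of KO over WT, Uncx had -0.07 (-0.14 to 0.01), Pax1 0.33 (0.25 to 0.41) and Pax9 0.24 (0.13 to 0.35). Uncx stood at 211 CPM in WT and at 201 CPM in KO, Pax1 at 180 and 226 CPM, and Pax9 at 85.6 and 101 CPM. The median cell carried 3 Uncx UMIs in either library and the highest 27 in WT and 29 in KO. Both Pax genes were detected in 301 WT and 503 KO cells, Pax1 alone in 190 and 300, and Pax9 alone in 82 and 157.

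Just inside the rule lay 130 WT and 248 KO cells with exactly 1 Uncx UMI, and 123 and 200 with exactly 1 UMI of Pax1 and Pax9 summed. Cells with 1 Uncx UMI carried less Irx1 (14.3 CPM in WT, 30.7 in KO) than those with more (78.4 and 92.5 CPM). Just outside, 12 of 2283 WT and 26 of 2165 KO barcodes with 1000 to under 2000 UMIs held the required genes, and just inside, at 2000 to under 3000 UMIs, 7 of 733 and 15 of 689 did. Between 9% and 10% mt- UMIs lay 18 WT and 20 KO cells.

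Depth was similar in Uncx+ and Uncx- sclerotome. Uncx+ sclerotome cells had a median of 14785 UMIs in WT and 13446.5 in KO, against 13067 and 12426 in barcodes with Pax1 or Pax9 but no Uncx (Uncx- sclerotome, 1091 WT and 1513 KO barcodes). Free RNA was gauged in globin-rich barcodes, those with 20% or more globin UMIs, which are red blood cells and should lack all of these genes. Only 4 of 743 globin-rich barcodes in WT and 4 of 216 in KO, at median depths of 16738 and 19517 UMIs, met the gene rule. The libraries shared 20 of their passing barcode sequences, and no sequence was an Uncx+ sclerotome cell in both libraries.

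Doublets were kept. Scrublet, a doublet caller, marked 0 barcodes in WT and 1 in KO by its own threshold, and these calls were not used. A limit set at the highest 6% of its scores took in 6.30% of passing barcodes in WT and 6.77% in KO, since scores were tied. Of Uncx+ sclerotome cells, 15.5% in WT and 12.9% in KO lay above it, against 9.44% and 10.0% of Uncx- sclerotome barcodes.

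The label of caudal sclerotome was checked against its markers. Sox9 was detected in 90.6% of Uncx+ sclerotome cells in WT and 84.9% in KO, Col2a1 in 94.9% and 93.2%, and Col9a2 in 74.0% and 73.5%. In globin-rich barcodes Sox9 was seen in 7.0% and 6.9% and Col2a1 in 7.7% and 6.0%. Irx1, given with Uncx as a marker of the caudal compartment, was detected in 37.0% and 40.6% of the cells, so most cells that met the rule showed no Irx1 UMI at this depth. Of the notochord, which also lies at the midline, Shh had no UMI in either library, and the summed list (T, Shh, Noto, Foxa2, Foxa1) came to 5.45 CPM in WT and 7.76 CPM in KO, nearly all of it Foxa1. The ventral sclerotome list was led by Twist1 at 273 and 227 CPM, while Nkx3-2, a factor of sclerotome chondrogenesis, had only 8 UMIs in WT. The cartilage markers were thus present in most cells, but Uncx- sclerotome carried them too, as given below, so they do not mark the caudal part. The polarity genes below describe the caudal part of the label, and of the caudal list only Irx1 was past the 2-fold mark in both libraries.

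The closest population was the Uncx- sclerotome of the same library. Across 12077 genes measured (50 or more UMIs over both populations in each library), 13 genes were 2-fold or more higher in Uncx+ cells in both libraries, or 0.108% of genes, and 84 were lower, or 0.696%. The 13 were Irx1, Irx2, Gm20554, Arhgef3, Tnc, Prelp, AC123870.1, Unc13c, Mgst2, Sema3e, Scx, Cnmd and Cited1. With the Uncx UMIs setting the split, they are a description of these cells and no test. The counts moved with the settings. On thinned cells (2000 UMIs each) 42 genes were higher and 185 lower, and those lower numbered 45 under 5% mt- UMIs and 26 where both populations had to hold 2 or more UMIs of Pax1 and Pax9.

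The Iroquois homeobox genes Irx1 and Irx2 stood highest. Irx1 lay at 65.3 CPM in Uncx+ and 10.2 CPM in Uncx- sclerotome of WT, a log2 ratio of 2.67 (2.45 to 2.90). In KO the levels were 79.0 and 16.4 CPM, a log2 ratio of 2.27 (2.11 to 2.42). Irx2 followed the same course with 81.2 against 14.9 CPM in WT (log2 ratio 2.45) and 98.5 against 21.4 CPM in KO (2.20). Irx3 and Irx5, which belong to the other Iroquois cluster, ran the opposite way. Irx3 was lower in Uncx+ cells by log2 ratios of -1.04 in WT and -1.32 in KO, and Irx5 by -1.15 and -0.99. Irx4 and Irx6 had too few UMIs to be measured.

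Irx1 and Irx2 are neighbours on chromosome 13 of GRCm38. Irx1 lies on the minus strand (chr13:71957921-71963723) and Irx2 on the plus strand (chr13:72628820-72634198), with 665096 bases between the start of Irx1 and the start of Irx2. The third gene of the list, the lincRNA Gm20554 (chr13:72626213-72628564, minus strand), starts 255 bases from Irx2 and is transcribed away from it. Gm20554 stood at 3.37 against 0.636 CPM in WT and 4.23 against 1.01 CPM in KO. Within Uncx+ cells it was found in 35 of 278 WT cells with Irx2 (12.6%) and in 1 of 295 without (0.339%). In KO the counts were 60 of 486 (12.3%) and 4 of 474 (0.844%). At full depth Gm20554 was thus mostly seen in cells with Irx2. After thinning each cell to 2000 UMIs it was left in 3 of 99 WT cells with Irx2 (3.03%, 0.629 to 8.60%) and 3 of 474 without (0.633%, 0.131 to 1.84%). In KO it was left in 5 of 182 (2.75%, 0.898 to 6.29%) and 4 of 778 (0.514%, 0.140 to 1.31%). These counts are small, the intervals overlapped in both libraries, and the difference was not tested.

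The bases that separate both start sites are shown because both genes were higher in Uncx+ cells and this stretch lies before the start of each. It is the 250 bases before the start of Irx2 (RefSeq, GRCm38.p6, chr13:72628570-72628819, plus strand), intergenic between both genes, with a CCAAT box in capitals.
Irx2 promoter: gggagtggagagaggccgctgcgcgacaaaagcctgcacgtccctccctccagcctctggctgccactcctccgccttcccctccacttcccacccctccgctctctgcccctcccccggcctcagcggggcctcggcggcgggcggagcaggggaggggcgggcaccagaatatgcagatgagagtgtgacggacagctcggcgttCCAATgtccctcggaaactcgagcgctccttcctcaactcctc
The stretch holds 68.4% G and C, against a median of 52.4% over 32851 mouse promoters of this length, and 19 CG dinucleotides, against a median of 6. The letters CCAAT, searched on both strands, were found once, 43 bases before the start of Irx2, and occur in 33.8% of all those promoters. The match is a description of the sequence and not a factor's site.

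**Figure D1:**
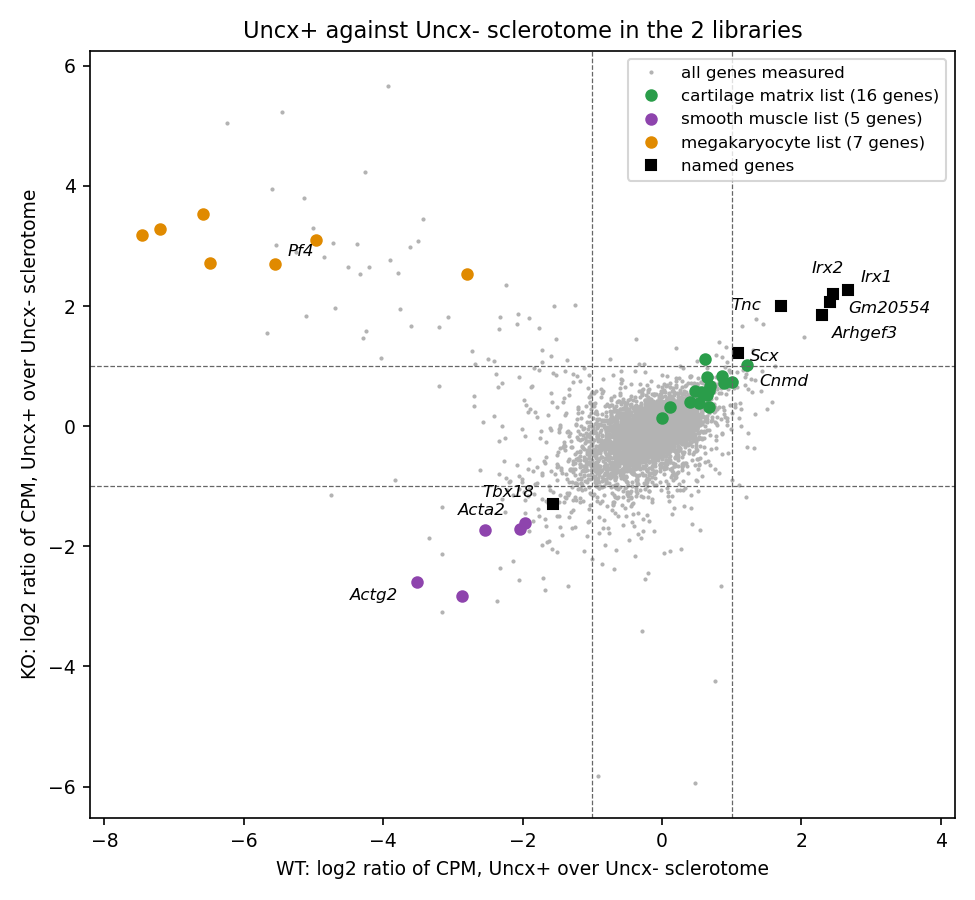
Each point is 1 of 12077 genes, with the log2 ratio of CPM of Uncx+ over Uncx- sclerotome in WT on the x axis and in KO on the y axis, and dashed lines at the 2-fold mark. Irx1, Irx2, Gm20554, Arhgef3 and Tnc lie at the upper right, the 5 smooth muscle genes at the lower left, the 16 cartilage matrix genes around medians of 0.64 in WT and 0.60 in KO (15 above 0 in WT, all in KO, Cnmd past the mark in both), and the 7 megakaryocyte genes on opposite sides in WT and KO.

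Among the other 13, Tnc encodes tenascin-C, a matrix protein listed here with the rostral compartment. It went with Uncx in these libraries, at 34.8 against 10.6 CPM in WT (log2 ratio 1.71) and 43.1 against 10.7 CPM in KO (2.0). Scx, the transcription factor of tendon progenitors of the syndetome, stood at 80.2 against 37.7 CPM in WT and 119 against 51.2 CPM in KO. Tnmd, a later tendon gene, was lower in Uncx+ cells by log2 ratios of -1.93 and -1.17. Arhgef3 had log2 ratios of 2.29 and 1.85, and Sema3e, a secreted guidance cue, of 1.15 and 1.67.

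Of the rostral list, Tbx18 was the one that ran against Uncx. It stood at 11.2 CPM in Uncx+ and 33.3 CPM in Uncx- sclerotome of WT, a log2 ratio of -1.57 (-1.85 to -1.29), and at 9.0 and 22.0 CPM in KO (-1.29). Epha4, an ephrin receptor, was level, with log2 ratios of 0.01 and 0.05. The protocadherin gene Pcdh8 had 0.62 and 0.50, and Mesp2, a gene of the presomitic mesoderm, had 0 UMIs in WT and 1 in KO Uncx+ cells.

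The rest of the caudal list did not separate the populations. Sema3a, an axon repellent, had log2 ratios of 0.25 in WT and 0.31 in KO. Sema3f had 0.01 and 0.02, and Efnb2, an ephrin of caudal cells, -0.20 and 0.04. Vcan, the most abundant of the list at 438 and 551 CPM in Uncx+ cells, had -0.22 and -0.06, and Spon1 -0.27 and -0.41. The Notch ligand Dll1, which marks the caudal compartment earlier in the somite, was not measured for want of UMIs. Thus 1 of 6 measured caudal genes (Irx1) was past the 2-fold mark in both libraries, and of 4 rostral genes 1 was higher (Tnc) and 1 lower (Tbx18). Over all genes, 0.108% were higher and 0.696% lower.

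To set shares of cells side by side at equal depth, each barcode was thinned to 2000 UMIs. Irx1 was then seen in 11.5% of Uncx+ and 2.6% of Uncx- sclerotome cells in WT and in 14.3% and 3.3% in KO. Irx2 was seen in 17.3% and 3.8% in WT and 19% and 4.5% in KO. Before thinning, the Irx1 shares were 37.0% and 9.8% in WT and 40.6% and 13.4% in KO, with 0.8% and 1.9% in globin-rich barcodes. Tbx18 had the reverse order, with 1.7% of Uncx+ and 5.8% of Uncx- cells in WT and 1.4% and 3.6% in KO after thinning. Its unthinned shares were 11.7% and 29.1% in WT and 9.3% and 22.6% in KO, and 2.0% and 1.4% in globin-rich barcodes, so Tbx18 in Uncx+ cells was above background. Uncx and Tbx18 therefore overlapped at the level of single barcodes, and the part of doublets in this was not tested.

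**Figure D2:**
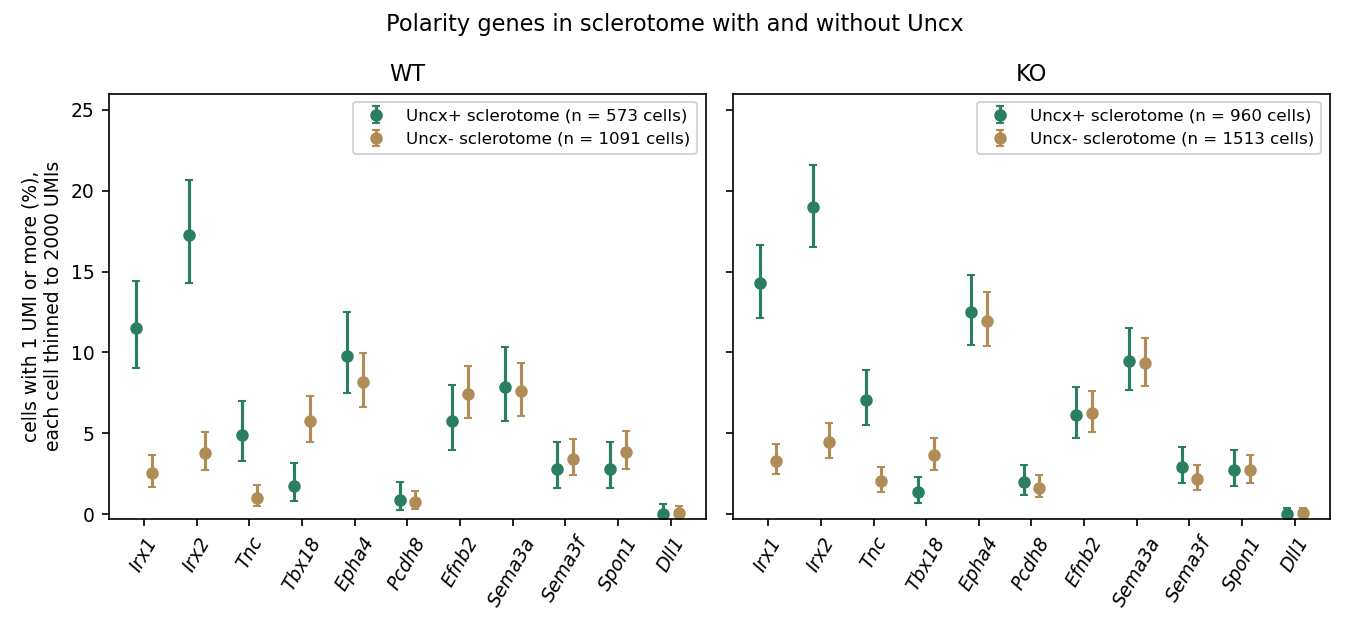
The y axis gives the percent of cells with 1 or more UMIs of each polarity gene after thinning to 2000 UMIs, for Uncx+ (green) and Uncx- (brown) sclerotome in WT and KO, with exact binomial 95% intervals. Irx1, Irx2 and Tnc are more often seen in Uncx+ cells, Tbx18 in Uncx- cells, and the intervals of Epha4, Efnb2, Sema3a, Sema3f and Spon1 overlap.

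Uncx+ cells were also richer in cartilage genes, at less than 2-fold. Of 16 cartilage matrix genes measured, 15 had log2 ratios above 0 in WT and all 16 in KO, with medians of 0.64 and 0.60 against -0.03 and -0.02 over all genes. The KO median was 0.36 when each cell counted equally and 0.35 on thinned cells, where the median lower bound of the genes' intervals was -0.03. Only Cnmd (chondromodulin) passed the 2-fold mark in both libraries. Col2a1, the main collagen of cartilage, stood at 776 against 426 CPM in WT and 929 against 520 CPM in KO. Col9a2, a collagen on the surface of its fibrils, stood at 110 against 59.5 CPM and 177 against 107 CPM. Acan, the large proteoglycan of cartilage, had log2 ratios of 1.00 and 0.73.

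The transcription factors of chondrogenesis had smaller ratios, with medians of 0.47 in WT and 0.40 in KO. The KO median was 0.14 under 5% mt- UMIs, with a median lower bound of -0.06, and with 2 or more Pax1 and Pax9 UMIs the medians were 0.26 in WT and 0.17 in KO. Sox9 stood at 272 against 197 CPM in WT and 287 against 218 CPM in KO (log2 ratios 0.47 and 0.40). Sox5 had log2 ratios of 0.48 and 0.58, Sox6 of 0.73 and 0.62, Trps1 of 0.10 and 0.26 and Runx2 of 0.32 and 0.10. Runx3 had 6 and 16 UMIs in Uncx+ cells and was not measured. None of the 5 measured was past the 2-fold mark.

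Genes of the signalling pathways were not past the 2-fold mark in both libraries. None of the 10 hedgehog genes was, with medians of -0.04 in WT and -0.05 in KO, and the receptor Ptch1, itself a target of the pathway, stood at 121 against 120 CPM in WT and 129 against 132 CPM in KO. None of the 13 BMP genes measured was either, the antagonist Nog having log2 ratios of 1.28 in WT, past the mark, and 0.79 in KO. Of the ventral sclerotome list, Meox1 had 1.19 and 0.69, Meox2 1.02 and 0.69, Twist1 -0.49 and -0.65 and Pdgfra -0.16 and -0.19. Of 32 Hox genes, none passed the mark, and Hoxc8, the most abundant, stood at 483 against 287 CPM in WT and 326 against 220 CPM in KO. The genes of S phase (medians 0.26 and -0.03) and of G2 and M phase (0.17 and 0.09) showed no gene past it.

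The genes lower in Uncx+ cells were led by those of smooth muscle. All 5 of the smooth muscle list were lower past the 2-fold mark in both libraries, against 0.696% of all genes. Actg2, a smooth muscle actin, stood at 4.75 against 54.6 CPM in WT and 8.95 against 53.8 CPM in KO. Acta2 stood at 149 against 583 CPM and 131 against 399 CPM, and Myh11 had log2 ratios of -2.87 and -2.83. The 10 lowest also held Foxs1, Anxa1, Calb2, Igfbp7, Kcnj8, Map3k7cl, Krt7 and Nnmt. Of the perivascular list, 4 of 6 were lower, Rgs5 and Kcnj8 among them, against the same 0.696%. Without barcodes of 5% mt- UMIs or more, the median of the smooth muscle list in WT moved from -2.54 to -0.66, and where both populations had to hold 2 or more UMIs of Pax1 and Pax9 it was -1.01. In KO it moved from -1.72 to -0.92, under the mark, without barcodes that held a Pdgfrb UMI.

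Genes of other cell types were compared between the populations as well. Red blood cell genes summed to 4643 CPM in Uncx+ and 16811 CPM in Uncx- sclerotome of WT and to 3356 and 6618 CPM in KO, Hbb-y being the most abundant, and 4 of 9 were lower past the mark. The 3 measured nephric genes had medians of -0.89 and -1.18 and the 3 epithelial genes of -0.40 and -0.43, with none past the mark in both libraries. Of 8 neural genes 1 was lower past the mark (medians -0.68 and -0.64), of 5 endothelial genes 1 (-0.82 and -0.42), and of 8 splanchnic mesenchyme genes 1 (-0.44 and -1.10), against 0.696% of all genes. None of 5 macrophage genes was, with medians of -1.38 in WT and 0.32 in KO. The dermomyotome and myotome list (10 genes) had none past it, with medians of -0.13 and -0.14, and none of 9 immediate-early genes, which respond to dissociation, was past it (-0.41 and -0.15). The part of these cells in the ratios above was not tested.

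A narrower comparison, chosen after these values were seen, set Uncx+ cells against Uncx- sclerotome barcodes with a Tbx18 UMI (317 in WT, 342 in KO). Of 11162 genes measured, 35 were higher past the 2-fold mark in both libraries (0.314%) and 133 lower (1.19%). Irx2 led with log2 ratios of 2.98 in WT and 2.87 in KO, followed by Irx1 (2.85 and 3.48), Cmtm5 (2.78 and 2.85), Arhgef3 (2.71 and 2.51), Prelp (2.12 and 2.27) and Etv4 (2.12 and 2.08). Cartilage matrix had medians of 0.67 and 1.03, with 3 of 14 genes past the mark. All 5 smooth muscle genes were lower here too, with medians of -3.39 and -3.03 against -2.54 and -1.72 over all Uncx- sclerotome, and the perivascular genes had -1.33 and -1.83. Smooth muscle genes thus stood higher in these barcodes than in Uncx- sclerotome as a whole, and the part of such cells in the ratios was not tested. These barcodes were deeper than the Uncx+ cells, at medians of 17312 and 17834.5 UMIs.

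Against all other passing barcodes, Uncx+ cells stood apart more widely. Of 14634 genes, 123 were higher past the 2-fold mark in both libraries (0.841%) and 955 lower (6.53%). The 10 highest were Irx1, Nrip3, Irx2, Gm20554, Krt36, Prelp, AC123870.1, Acan, Mia and Gm19385. Of 18 cartilage matrix genes, 14 were among the 123, and their medians were 2.18 in WT and 1.86 in KO against 0.03 and 0.00 over all genes. Sox9 stood at 272 against 71.7 CPM in WT and 287 against 98.9 CPM in KO, and Sox5 and Sox6 were past the mark as well. Scx had log2 ratios of 1.92 and 1.80. The 10 lowest included genes of neutrophils and monocytes, such as S100a8, S100a9, Ngp, Camp and Il1b.

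Uncx+ cells were not uniform, and Irx1 was used to show how they varied, a split chosen after its values were seen. Irx1 was detected in 212 WT and 390 KO cells and not in 361 and 570. Cells with Irx1 were deeper, at medians of 17058.5 against 13364 UMIs in WT and 14150 against 12746 in KO. Of 10064 genes, 21 were higher past the 2-fold mark in Irx1+ cells in both libraries (0.209%) and 104 lower (1.03%).

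Irx2 followed Irx1 from cell to cell. It was found in 190 of 212 Irx1+ cells (89.6%) and 88 of 361 Irx1- cells (24.4%) in WT, and in 334 of 390 (85.6%) and 152 of 570 (26.7%) in KO. After thinning, the shares were 29 of 66 (43.9%) against 70 of 507 (13.8%) in WT and 60 of 137 (43.8%) against 122 of 823 (14.8%) in KO. Its level was 166 against 24.6 CPM in WT and 212 against 27.2 CPM in KO.

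The other genes higher in Irx1+ cells included several transcription factors. Scx stood at 118 against 55.4 CPM in WT and 187 against 76.7 CPM in KO. Tnc stood at 59.0 against 18.7 CPM and 82.7 against 18.3 CPM. Meox1, a homeobox gene of early somites, stood at 115 against 44.0 CPM and 111 against 48.2 CPM, and Hoxa7 at 377 against 174 CPM and 362 against 149 CPM. Unc13c, March11, Arhgef3, Pcp4, Tbx2 and Bmp5, a bone morphogenetic protein, were also past the mark. Hbb-bh1 and Hba-a2, genes of red blood cells, were past it too, and the erythroid list had medians of 1.09 and 0.88. Few barcodes held 50 or more UMIs of that list, 3 of 212 Irx1+ and 2 of 361 Irx1- cells in WT and 3 of 390 and 4 of 570 in KO.

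Several cartilage genes stood higher in cells without Irx1. Of 14 cartilage matrix genes measured, 14 had log2 ratios of Irx1+ over Irx1- below 0 in WT and 13 in KO, with medians of -0.35 and -0.51. Of these, 3 were past the mark (Acan, Col11a2 and Papss2), against 1.03% of all genes. Over all 10064 genes, 6118 lay below 0 in WT and 6164 in KO, with medians of -0.07 and -0.05. Acan stood at 18.7 CPM in Irx1- and 4.98 CPM in Irx1+ cells of WT, and at 38.5 and 14.8 CPM in KO. Chad (chondroadherin) stood at 12.2 and 4.12 CPM in WT and 15.2 and 5.91 CPM in KO. Col11a2 had log2 ratios of Irx1+ over Irx1- of -1.68 and -1.17, and Papss2, which makes the sulfate donor for proteoglycans, of -1.52 and -1.36. The ratios of Sox9 (-0.27 and -0.12) and Col2a1 (-0.24 and -0.27) were smaller. Foxa1, listed with the notochord, stood at 7.91 CPM in Irx1- and 0.65 CPM in Irx1+ cells of WT and 10.8 and 2.39 CPM in KO. Tbx18 was found in 14.1% of Irx1- and 7.55% of Irx1+ cells in WT and in 12.5% and 4.62% in KO.

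Genes of muscle fibers were lower in Irx1+ cells as well, 8 of 8 past the mark against 1.03% of all genes. Acta1 (skeletal actin) stood at 1.08 against 101 CPM in WT and 3.52 against 77.2 CPM in KO. Few barcodes, 7 WT and 15 KO Uncx+ cells, held 50 or more UMIs of this list, which was added after the values were seen. These were 1 of 212 Irx1+ and 6 of 361 Irx1- cells in WT and 5 of 390 and 10 of 570 in KO. The part of these barcodes in the ratios was not tested. Of the 6 measured genes of the dermomyotome and myotome list 5 were lower too, with Myog at 12.6 against 41.8 CPM in WT and 14.6 against 40.3 CPM in KO.

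**Figure D3:**
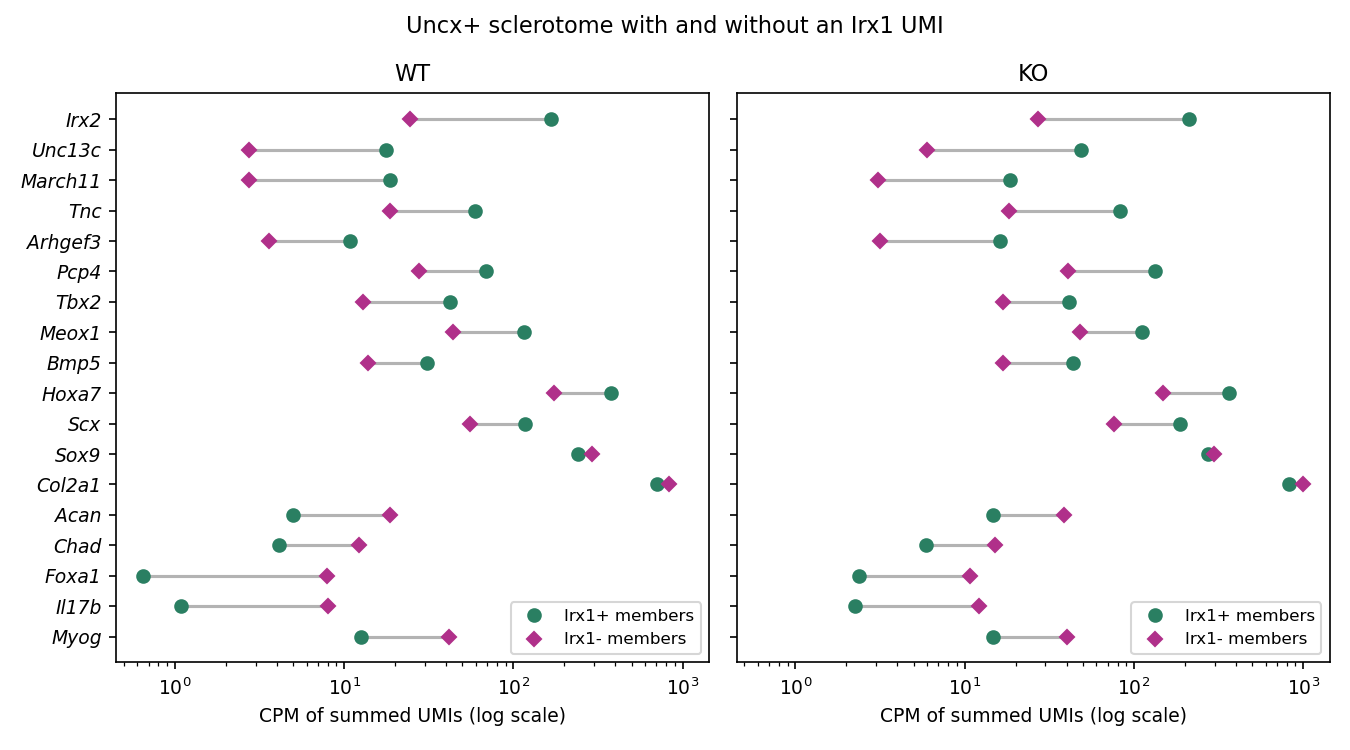
Levels in CPM (log scale) of selected genes in Uncx+ sclerotome cells with an Irx1 UMI (circles, 212 in WT and 390 in KO) and without one (diamonds, 361 and 570), with WT on the left and KO on the right. Irx2, Tnc, Meox1, Hoxa7 and Scx lie higher with Irx1, Sox9 and Col2a1 nearly coincide, and Acan, Chad, Foxa1 and Myog lie lower.

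Turning to the KO, the targeted gene was read first. Pdgfrb stood at 32.1 CPM in WT and at 4.39 CPM in KO Uncx+ cells, which as log2 of KO over WT was -2.87 (-3.23 to -2.52). It was detected in 191 WT cells (33.3%) and 73 KO cells (7.6%), and 3′ counts do not show whether the transcripts left hold the deleted part. Its log2 ratio was -2.79 in Uncx- sclerotome and -2.56 in the remaining barcodes. The libraries also differed in sex-linked genes. Xist stood at 881 CPM in WT and at 0.108 CPM in KO, and Ddx3y (61.8 CPM) and Eif2s3y (57.5 CPM) were found in KO only. Genotype, sex and library therefore cannot be told apart.

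Across 10731 genes with 100 or more UMIs summed over the Uncx+ cells of both libraries, 147 were 2-fold or more higher in KO (1.37%) and 96 lower (0.895%). The median over all genes was 0.04. Of the 147, 49 were also past the mark in Uncx- sclerotome, 33.3% of the 147 and 59.8% of those higher in Uncx- cells. Of the 96, 57 were lower in Uncx- sclerotome too, 59.4% of the 96 and 48.7% of those lower there. Of all 10731 genes, 82 were higher and 117 lower past the mark in Uncx- sclerotome. For 24 of the 147 and 2 of the 96, 1 cell held 50% or more of the KO UMIs. The same held for WT UMIs in 12 of the 147 and 5 of the 96. A larger part of the genes lower in KO than of those higher was past the mark in Uncx- sclerotome too. The part of such single cells in this was not tested.

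Genes of cartilage matrix stood higher in KO. All 17 measured had log2 ratios above 0, with a median of 1.15 (Uncx- sclerotome: 17 of 17, median 1.03). Of the 17, 9 were past the mark, against 1.37% of all genes. Col9a3 stood at 231 CPM in KO and 101 CPM in WT (log2 ratio 1.19), Acan at 29.3 and 13.2 CPM (1.15) and Cnmd at 24.5 and 6.83 CPM (1.84). Mia, a small secreted protein of cartilage, showed the largest ratio, at 34.8 against 2.77 CPM (3.65, 3.14 to 4.21), with UMIs in 242 KO and 24 WT cells. Epyc (3.35), Susd5 (2.21), Matn4 (1.36), Col11a2 (1.21) and Papss2 (1.15) were the others past the mark. The most abundant genes moved least. Col2a1 stood at 929 against 776 CPM (0.26) and Col9a1 at 338 against 303 CPM (0.16). Summed over the list, the level was 2576 CPM in KO and 1825 CPM in WT. The median fell to 0.75 when each cell counted equally and to 0.74 when cells were thinned to 2000 UMIs.

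**Figure D4:**
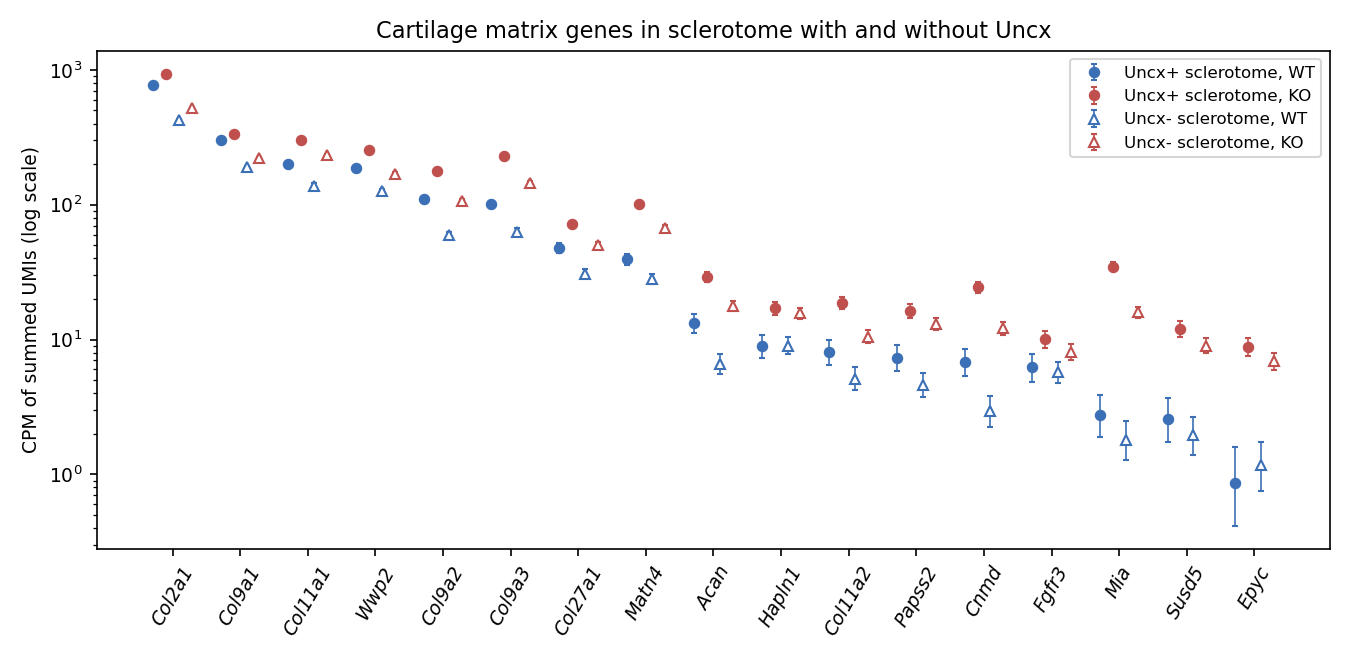
Levels in CPM (log scale) of 17 cartilage matrix genes in Uncx+ (circles) and Uncx- (triangles) sclerotome of WT (blue) and KO (red), with exact Poisson 95% intervals. For each gene the KO points lie above the WT points of the same population, by little for Col2a1 and Col9a1 and by most for Mia and Epyc.

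The 5 chondrogenic transcription factors measured had a median of 0.59. On thinned cells it was 0.27, with median bounds of the genes' intervals at -0.05 and 0.59, and it was 0.34 without barcodes that held a Pdgfrb UMI in either library. Sox9 was nearly level at 287 against 272 CPM (0.08, 0.02 to 0.14). Sox5 had 0.53, Sox6 0.62 and Trps1 0.59. Runx2, which drives hypertrophic cartilage and bone, stood at 10.4 against 5.01 CPM (1.05), but on thinned cells its log2 ratio was -1.11, with an interval from -2.77 to 0.49, so its direction is not settled by these counts. Scx stood at 119 against 80.2 CPM (0.57).

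No polarity gene was past the 2-fold mark between the libraries, Pcdh8 coming nearest. As log2 of KO over WT, Irx1 had 0.27 (0.15 to 0.40), Irx2 0.28 and Tnc 0.31. Tbx18 had -0.32, with an interval from -0.66 to 0.02 that includes 0. Sema3a had 0.44, Vcan 0.33, Epha4 0.20, Efnb2 -0.16 and Spon1 -0.43. Pcdh8 had 0.98. The 6 caudal genes measured had a median of 0.14 and the 4 rostral genes of 0.26. Unc13c, which went with Irx1, stood at 22.3 CPM in KO and 8.73 CPM in WT.

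Among the genes lower in KO, those of splanchnic mesenchyme were the list with most members past the mark. Pdgfra, the sister receptor of Pdgfrb and a gene of sclerotome mesenchyme, stood at 99.9 against 158 CPM (-0.67), and its log2 ratio was -0.64 in Uncx- sclerotome. Of 8 splanchnic mesenchyme genes, 6 were lower past the mark, against 0.895% of all genes, with a median of -1.56 (-0.83 in Uncx- sclerotome). Barx1, a homeobox gene of stomach mesenchyme, stood at 0.542 CPM in KO and 18.6 CPM in WT, from 28 WT cells, Isl1 at 18.8 and 49.7 CPM, and Foxf1, the most abundant, at 37.5 and 55.2 CPM. Whether such cells met the rule as doublets was not tested. Gm10076, Usp50, Nme2, Hist1h2ap and Hist1h2br, also among the 10 lowest and seen in many cells, had log2 ratios from -5.43 to -2.87 and like ratios in Uncx- sclerotome. Some of these have near-identical copies in the genome, so their values are uncertain, and how reads were assigned was not tested.

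Of 31 Hox genes measured, 4 were higher and 1 lower past the mark, against 1.37% and 0.895% of all genes. Hoxd9 (1.92), Hoxa10 (1.39), Hoxc10 (1.34) and Hoxd10 (1.25) were higher in KO, and Hoxd13 (-1.58) was lower. Over the list, 18 genes lay above 0 and 13 below. Hoxc8 stood at 326 CPM in KO and 483 CPM in WT (-0.57). Hox genes mark the position along the trunk, and the level that was dissected cannot be told apart from genotype. The median of the Hox list was 0.19.

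The hedgehog genes (median 0.09), BMP genes (0.14) and ventral sclerotome genes (-0.11) had none past the mark. All 10 genes of S phase lay below 0 with a median of -0.21, and 9 of 10 of G2 and M phase (-0.24), none past it. Of 7 immediate-early genes, Junb (1.13) and Fosb (1.06) were higher in KO, with all 7 above 0 and a list median of 0.68. Of 4 endothelial genes 2 were higher, with all 4 above 0 and a median of 1.38, or 1.07 without the top cell of each gene. Few Uncx+ cells, 3 of 960 in KO and 1 of 573 in WT, held 50 or more UMIs of the endothelial list, and their part was not tested. Of 4 macrophage genes 1 was higher, with 3 above 0 and a median of 0.33. Of 9 erythroid genes 1 was higher and 2 lower, with 4 above 0, 5 below and a median of -0.23. Of 3 epithelial genes 1 was lower, with 1 above 0, 2 below and a median of -0.44. Of 5 neural genes 2 were lower, but 3 lay above 0 and the median was 0.17. Over all genes, 1.37% were higher and 0.895% lower past the mark. Smooth muscle (0.03), dermomyotome and myotome (0.29), nephric (-0.50) and muscle fiber genes (0.06) had none past it, and of 4 perivascular genes Pdgfrb alone was.

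The sex-linked genes, with log2 ratios such as 8.22 for Kdm5d and -12.99 for Xist, were kept out of the ranking of genes. Apart from them, most of the highest ratios came from a few barcodes. Of the 10 genes then highest in KO, 9 are platelet or blood genes (Treml1, Gp9, Clec1b, Ctla2a, Gp5, Pf4, Alox12, Nrgn and Ppbp), and the other is Gm47283 on the Y chromosome. Pf4 had 6927 UMIs in 33 KO cells, of which the top cell held 4069 and the next 1936. The megakaryocyte list, added after its values were seen, summed to 480.1 CPM in KO and 12.8 CPM in WT Uncx+ cells, but to 70.6 and 563.9 CPM in Uncx- sclerotome, where the median of its ratios was -2.96 as log2 of KO over WT. Likewise Chga, Chgb and Dbh, genes of chromaffin cells and sympathetic neurons and the lowest 3 in KO apart from Xist, came from 3 to 6 WT cells. Leaving out the top cell of each gene gave 150 higher (1.4%) and 91 lower (0.848%).

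**Figure D5:**
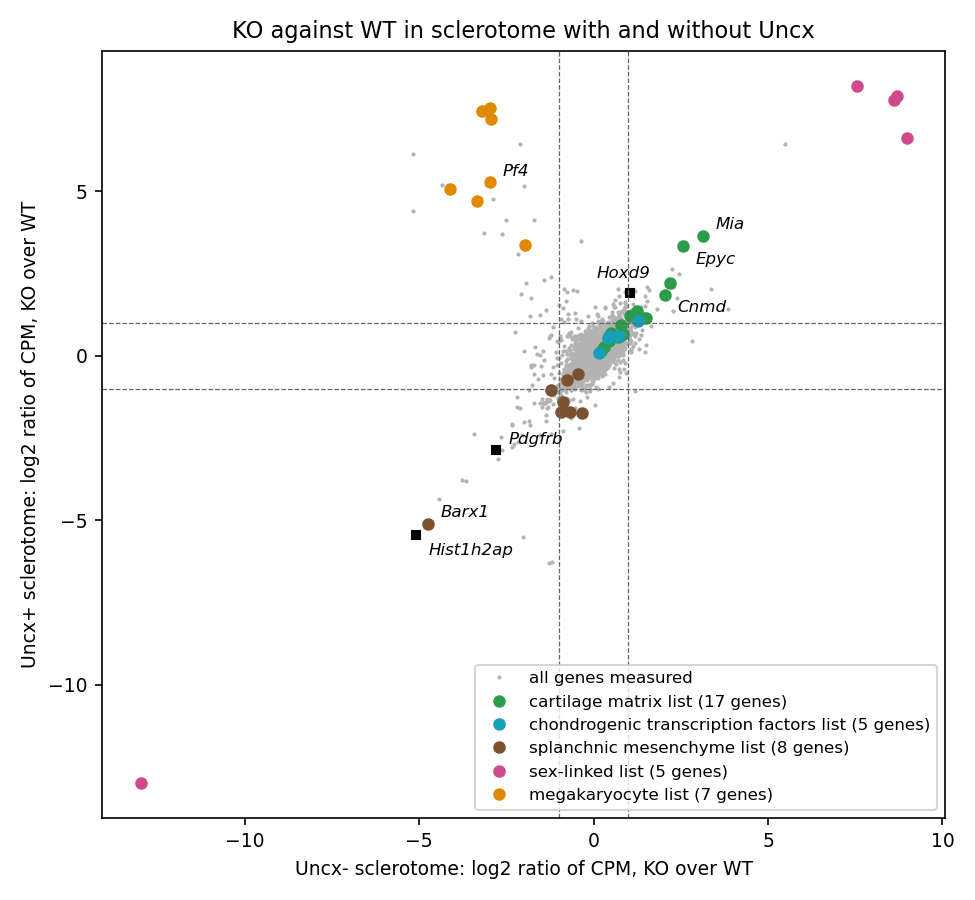
Each point is 1 of 10731 genes, with the log2 ratio of CPM of KO over WT in Uncx- sclerotome on the x axis and in Uncx+ sclerotome on the y axis, dashed lines at the 2-fold mark, and a library at 0 UMIs set to 3. Cartilage matrix (medians 1.03 on the x axis and 1.15 on the y axis) and sex-linked genes lie near the diagonal, splanchnic mesenchyme lies lower on the y axis (-0.83 and -1.56), and the 7 megakaryocyte genes lie high on the y axis and low on the x axis.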

How the data were processed

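Single-cell RNA sequencing of whole E11 AGMs was analysed, with 1 library each of PDGFRB +/+ (WT) and PDGFRB -/- (KO) embryos. The authors aligned the reads and counted UMIs with Cell Ranger 3.1.0 against mm10/GRCm38, and deposited raw UMI counts of every gene and barcode without calling cells or normalizing. The study's own calling of cells by EmptyDrops and its removal of KO cells with Pdgfrb UMIs were not part of the rule used here, and the latter was run as an alternative. Gene positions came from GENCODE M21 and the promoter from RefSeq.

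Cells were taken by the limits given above, and UMIs were summed per population and expressed as CPM. Ratios carry exact conditional binomial intervals, levels exact Poisson intervals and shares Clopper-Pearson intervals, all at 95% and for counting error only. A population at 0 UMIs was set to 3 counts, which makes the ratio a bound. Genes needed 50 UMIs over both populations in each library, or 100 over both libraries for KO against WT. Barcodes held from 2228 UMIs upward in WT Uncx+ cells. Shares were also computed after thinning each cell to 2000 UMIs. The summing, ratios and intervals were tested on simulated data with known folds. Python 3.11.15, numpy 2.4.6, scipy 1.17.1, pandas 2.3.3, scanpy 1.11.5 (Scrublet) and matplotlib 3.10.9 were used.

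Cells, gene lists and comparisons were chosen with earlier results of these data known. The genes named are those of the rule with its markers and Pdgfrb, the 10 highest and 10 lowest past the 2-fold mark in a comparison (sex-linked genes apart in KO against WT), and from each list the members with most UMIs, with all polarity, Iroquois and chondrogenic factors. The split by Irx1, the Tbx18+ comparison, the megakaryocyte, muscle fiber and Hox lists, and single genes outside these rules were chosen after values were seen. A gene among the lowest in KO against WT is not reported here. Snorc of the cartilage list is not in the table used here. Alternatives covered the limits of the rule, doublets, Pdgfrb, scaling, thinning, the minimum of UMIs and free RNA.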

Additional observations from a re-analysis of the deposited data

Results flagged for a closer look

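The 7 megakaryocyte genes, as log2 of Uncx+ over Uncx- sclerotome, had medians of -6.48 in WT and 3.1 in KO, opposite directions in the libraries, and the difference was not tested. Of their 8851 UMIs in KO Uncx+ cells, 5419 lay in 1 cell and 2207 in another, and in WT 68 of 148 lay in 1 cell. Over all genes, 56 were 2-fold or more in opposite directions in WT and KO, 55 of them lower in WT and higher in KO. The other was Sln, a small protein of muscle, at 11.4 CPM in Uncx+ and 4.94 CPM in Uncx- sclerotome of WT and 15.5 and 34.8 CPM in KO.

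Barcodes that the mt- limit left out also held Uncx with Pax1 or Pax9. Among barcodes with 10% or more mt- UMIs, 6.45% (5.0 to 8.16%) did so in KO and 3.04% (2.05 to 4.34%) in WT, which is the order seen among the cells kept. Their part in the shares was not tested.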

How the results depend on the processing

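No paired analysis was possible because each genotype has 1 library. Scrublet's own threshold left out 0 and 1 barcodes, so barcodes at or above the limit of the highest 6% of scores were left out instead (6.30% in WT and 6.77% in KO with ties), a setting chosen after seeing the data, as were the Tbx18+ comparison, the top cell left out and Pdgfrb left out of both libraries. Of 672 ratios of named genes under the alternatives, 663 kept their sign, 484 stayed within the counting interval of the reported value, 187 moved outside it, and Runx2 in KO against WT reversed past the 2-fold mark, to -1.11 on thinned cells. Causes of the changes were not tested. The share of Uncx+ cells in WT and KO became 5.55% and 9.55% with a minimum of 1000 UMIs, 7.94% and 13.2% with 5000, 5.89% and 9.47% under 5% mt- UMIs, 5.37% and 8.72% with 2 Uncx UMIs, 5.45% and 9.31% with 2 Pax1 and Pax9 UMIs, and 6.26% and 10.98% without high Scrublet scores. Thinned Tbx18 shares became 0.472% in WT Uncx+ cells under 5% mt- UMIs and 4.92% in KO Uncx- cells without high Scrublet scores. For Uncx+ against Uncx-, the genes higher became 42 on thinned cells, 21 with the lower gene minimum and 35 against Tbx18+ barcodes. Those lower became 45 under 5% mt- UMIs, 131 with 2 Uncx UMIs, 26 with 2 Pax UMIs, 160 by the mean of per-cell CPM, 185 on thinned cells, 47 with the higher gene minimum, 138 with free RNA subtracted, 133 against Tbx18+ barcodes, 132 without the top cell and 147 without high Scrublet scores. Cartilage matrix became 0.44 in WT with 2 Uncx UMIs, and in KO 0.47 under 5% mt- UMIs, 0.41 with 2 Pax UMIs, 0.53 without KO cells with Pdgfrb, 0.36 per cell, 0.35 thinned and 1.03 against Tbx18+ barcodes. The chondrogenic factors became 0.26 in WT with 2 Pax UMIs and 0.61 without high Scrublet scores, and in KO, in the order just given, 0.14, 0.17, 0.30, 0.28, 0.27 and 0.63. Smooth muscle in WT became -0.66 under 5% mt- UMIs, -3.56 with 2 Uncx UMIs, -1.01 with 2 Pax UMIs, -2.07 per cell, -3.39 against Tbx18+ barcodes and -3.28 without the top cell, and in KO -0.92 without Pdgfrb cells, -3.03 against Tbx18+ barcodes, -2.14 without the top cell and -2.24 without high Scrublet scores. Against all other barcodes, 226 genes were higher on thinned cells, and 610 were lower under 5% mt- UMIs and 520 on thinned cells. There cartilage matrix became 2.70 in WT under 5% mt- UMIs, and in KO 1.97 under 5% mt- UMIs, 1.76 per cell, 1.78 thinned and 2.01 with free RNA subtracted, and the chondrogenic factors in WT 1.53 under 5% mt- UMIs, 1.30 per cell, 1.33 thinned and 1.21 without high Scrublet scores. In KO against WT, the genes higher became 97 under 5% mt- UMIs, 572 thinned, 290 and 73 with the lower and higher gene minimum and 227 without Pdgfrb cells in both libraries, and those lower 60, 380 and 151 in the first 3 of these settings. Cartilage matrix became 1.32 with 2 Uncx UMIs, 0.75 per cell, 0.74 thinned, 0.73 without Pdgfrb cells in both libraries and 0.79 without high Scrublet scores, and the chondrogenic factors 0.27 thinned, 0.34 without Pdgfrb cells in both and 0.43 without high Scrublet scores. The median over all genes in KO against WT lay between 0.02 and 0.08 in all settings. The limit of 5% mt- UMIs left 212 WT and 276 KO cells. In the reported settings, ratios were not read for genes under 50 UMIs within the libraries or under 100 in KO against WT. Detection on thinned cells is close to 1 UMI for the rarer polarity genes.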

Other observations

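Barcodes with Uncx UMIs but none of Pax1 or Pax9 numbered 343 in WT and 465 in KO and lay outside the rule. They carried Irx1 at 49.2 and 68.3 CPM, Irx2 at 56.9 and 97.3 CPM and Tnc at 55.5 and 85.2 CPM. Sox9 stood at 142 CPM in WT and at 181 CPM in KO there, and Col2a1 at 347 and 544 CPM, against 272 and 287 CPM of Sox9 and 776 and 929 CPM of Col2a1 in Uncx+ sclerotome cells. Tbx18 stood at 9.79 and 7.21 CPM.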
